A study of Homo sapiens with 24 samples.

Results

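The starting difference between a hairpin line and its control line was measured in D425 cells, an established line from a human medulloblastoma, on 8 of the 24 arrays of a time course of OTX2 silencing. The arrays were chosen by their labels alone: all those taken at 0 h and 8 h of doxycycline. There were 6 arrays of cells with a doxycycline-inducible short hairpin RNA against OTX2, from 3 independent courses (shOTX2 courses 1, 2 and 3), and 2 arrays of the control course. Cells of both lines were grown in MEM with fetal calf serum and plated a day before doxycycline was added. The 0 h arrays are thus of cells before induction, and the 8 h arrays of cells after 8 h of the drug in both lines. What the control cells carry, and whether either line is 1 clone or a mixed culture, the labels do not say. The control line was followed in 1 course, so its own spread between courses was not measured and is assumed here to be that of the hairpin courses.

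Medulloblastoma is an embryonal tumour of the cerebellum. OTX2 is a homeobox protein that controls transcription in the early brain, the retina and the pineal gland, and is highly expressed in many of these tumours, where MYC is another driver and genes of photoreceptors can be active. An inducible hairpin line is made by bringing a construct into the parental cells and selecting the cells that took it up, so that it and its control are separate cultures with separate histories.

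RNA was measured on Affymetrix U133 Plus 2.0 arrays, 1 per sample. Signal is the deposited brightness of a probe set, scaled so that every array had a trimmed mean near 100, and an array's median was from 16.3 to 19, so that values near or under 19 belong to the dimmer part of the probe sets. A log2 difference is the mean of log2(signal + 16) in the hairpin courses minus that in the control course, which understates differences of dim genes. In all, 13006 genes passed a filter on low values and were tested. Hairpin courses 2 and 3 stood apart from course 1 and the control in a technical reading. The ratio of the 3' to the 5' actin probes, which grows as RNA or its copying gets shorter, ran from 1.37 to 1.46 in course 1 and from 1.30 to 1.39 in the control, but from 1.87 to 2.36 in courses 2 and 3. The GAPDH ratio ran from 0.995 to 1.10 throughout. The first principal component of the 8 arrays (34.7% of the variance) gave course 1 and the control scores from -21.3 to -14.8 and the other courses scores from 14.3 to 25.4. The second (22.1%) put the control at -16.9 and -19.1 and course 1 at 24.7 and 18.5. The 4 arrays of courses 2 and 3 lay above the other 4 in 879 genes (6.76%) and below them in 1617 (12.4%), 2496 in all (19.2%), and the 6 hairpin arrays did not overlap the 2 control arrays in 2509 genes (19.3%). The lines were compared with 1 value per course, since the arrays of a course were not taken as independent. This does not remove the split between the courses. Values of course 1, which shares the control's actin ratio, are given for some genes and lists, but not wherever the courses disagree. The part of RNA quality in single genes was not tested.

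limma called 9 of 13006 genes (0.0692%) at a Benjamini-Hochberg adjusted p under 0.05, of which 7 were higher in the hairpin line (0.0538%) and 2 lower (0.0154%). COL11A1 was bright in the hairpin line and at the bottom of the scale in the control, and ZNF22 the reverse. The other 7 called genes passed with adjusted p from 0.0474 to 0.0488. The test had 2 residual degrees of freedom, and the called gene with the smallest difference was TMEM132D-AS1, at -1.43. In simulated data the same fit called 0% of genes changed by a log2 of 1 and 55.2% of those changed by 2. A gene that was not called may therefore still differ between the lines. At an unadjusted p under 0.05 there were 888 genes, where chance gives 650. Leaving out course 1 gave 1092 called genes, leaving out course 2 gave 2, and leaving out course 3 gave 36. With all 8 arrays in the fit and the course as a random block, limma called 63 genes (47 higher, 16 lower), the 9 among them. The 6 hairpin arrays lay above both control arrays in 1136 genes (8.73%) and below both in 1373 (10.6%), so genes with separate arrays far outnumbered the called genes. With a difference of at least 2-fold on the scale used, 80 genes were higher (0.615%) and 53 lower (0.408%). The median over all tested genes was -0.04, and by course 0.0085, -0.058 and -0.053.

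**Figure D1:**
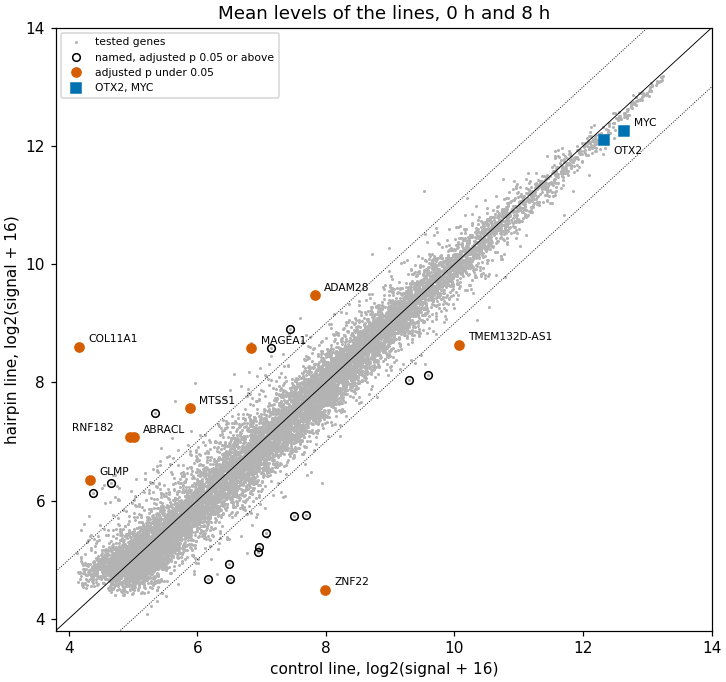
Mean log2(signal + 16) of the hairpin line (vertical axis, 6 arrays of 3 courses) against that of the control line (horizontal axis, 2 arrays of 1 course) for 13006 tested genes. The solid line marks equal levels and the dotted lines a 2-fold difference; filled circles are the 9 genes with a limma adjusted p under 0.05, open circles the other named genes, and squares OTX2 and MYC. COL11A1 and ZNF22 lie farthest from the line, with log2 differences of 4.44 and -3.50.

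COL11A1 encodes a chain of type XI collagen, a minor fibrillar collagen of cartilage and of the embryonic matrix. Its signal was 354 at 0 h and 327 at 8 h in hairpin course 1, 371 and 406 in course 2, and 384 and 403 in course 3. In the control line it was 1.4 and 2.4. All 6 hairpin arrays were thus bright and alike, and both control arrays were far below the array median. The log2 difference was 4.44 (SE 0.22, limma adjusted p = 0.000104), with 4.32, 4.50 and 4.52 in the 3 courses. Since the control value is near 0, the size rests on the constant added, and it was 7.03 with 1 and 2.73 with 64 in place of 16. The gene's other probe sets gave 4.20 (signals of 211 to 399 against 0.9 and 2.6) and 1.84 (34.7 to 61.1 against 3.1 and 0.6). COL11A1 was called under all 17 alternatives run.

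ZNF22 encodes a small zinc finger protein of the Krüppel type. Its signal was 215 and 265 in the control line. In the hairpin line it was 0.5 and 14.3 in course 1, 0.7 and 1.1 in course 2, and 12.5 and 15.2 in course 3, all 6 below the array median. The log2 difference was -3.50 (SE 0.33, limma adjusted p = 0.015). The second probe set of ZNF22 read 90.8 and 90.9 in the control and between 6.7 and 13.1 in the hairpin line, a difference of -2.02, and again no arrays overlapped. ZNF22 kept its call by limma in 13 of 16 alternatives, and lost it with the 8 h arrays alone (adjusted p = 0.0883), without the filter (0.147), and with 1 as the constant added (0.0778). In the last of these the second probe set was taken as the brighter one. With the first kept, the difference was -5.55 with 1 (limma adjusted p = 0.163) and -2.09 with 64, so its size too rests on the constant. A filter asking for 6 of the 8 arrays, the remaining alternative, left ZNF22 out, because it passed through the control arrays alone.

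The stretch of 250 bases before the annotated start of each of these genes is shown because they were the extremes of the comparison. The sequences are RefSeq's on GRCh38.p14, 5′ to 3′ on the strand of the gene, with CG dinucleotides in capitals. The COL11A1 stretch is chr1:103108523-103108772 on the minus strand, has a GC content of 68.8% and holds 11 CG. The ZNF22 stretch is chr10:45000673-45000922 on the plus strand, has a GC content of 59.6% and holds 19 CG. No methylation or binding data of these samples were used here.
COL11A1: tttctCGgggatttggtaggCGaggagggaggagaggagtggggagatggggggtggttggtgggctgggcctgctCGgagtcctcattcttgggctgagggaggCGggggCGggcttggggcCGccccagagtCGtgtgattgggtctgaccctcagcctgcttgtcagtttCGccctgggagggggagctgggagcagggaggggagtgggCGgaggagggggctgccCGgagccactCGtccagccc
ZNF22: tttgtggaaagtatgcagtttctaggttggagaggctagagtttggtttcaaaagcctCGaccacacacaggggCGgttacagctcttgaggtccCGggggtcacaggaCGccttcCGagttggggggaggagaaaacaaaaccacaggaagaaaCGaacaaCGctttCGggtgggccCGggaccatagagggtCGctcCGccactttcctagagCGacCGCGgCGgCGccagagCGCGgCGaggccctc

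The other genes called higher in the hairpin line have varied roles, and none was as far from the control as COL11A1. RNF182, a ubiquitin ligase of neural tissue, read 128 and 155 in hairpin course 1, 92.4 and 123 in course 2, and 107 and 116 in course 3, against 10.1 and 20.9 in the control (log2 difference 2.12, limma adjusted p = 0.0474). ABRACL, a small protein linked to actin dynamics and cell movement, read between 97.1 and 147 against 14.3 and 18.4 (2.06, adjusted p = 0.0488 by limma). GLMP, a glycoprotein of the lysosomal membrane, read between 56.0 and 74.7 against 5.2 and 3.3 (2.01, adjusted p = 0.0488 by limma), and its other 2 probe sets gave 0.92 and 1.34. Its control values are below the array median, and the difference was 3.69 with 1 and 0.93 with 64 as the constant. For these 3 genes no hairpin array came near either control array. MTSS1, a scaffold that bends membranes and binds actin, read between 138 and 199 against 44.6 and 41.1 (1.68, adjusted p = 0.0488 by limma). Its 4 other probe sets, of which 1 passed the filter, were dim, with no hairpin array above 25.7, and gave differences from -0.24 to 0.47. ADAM28, a membrane metalloprotease, was bright in both lines, at 708 and 811 in course 1, 661 and 692 in course 2, 618 and 683 in course 3, and 187 and 240 in the control (1.64, adjusted p = 0.0474 by limma). Its other 3 probe sets gave 0.77, 0.83 and 1.13. All 9 called genes stayed called by limma without course 1 or course 3. Leaving out any course leaves 1 residual degree of freedom. Without course 2 COL11A1 and ZNF22 stayed called and the 7 others had adjusted p from 0.134 to 0.202, with differences about as large as before. RNF182, for one, gave 2.34, 1.99 and 2.03 in courses 1, 2 and 3.

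5 more genes complete the 12 named as higher, and did not pass the threshold although their arrays did not overlap. LIN7A, a scaffold of synapses and epithelial junctions, read between 117.5 and 246 against 22.4 and 26.6 (log2 difference 2.14, limma adjusted p = 0.0542). Its 3 other probe sets were dim and gave 0.14 to 0.54, and the mean of its kept probe sets 1.02. FAIM, an inhibitor of Fas-induced cell death, read between 50.1 and 58.4 against 8.9 and 1.5 (1.75, adjusted p = 0.0542). WSB2, a substrate receptor of a ubiquitin ligase, read between 303 and 424 against 126 and 125 (1.44, adjusted p = 0.0715), PTGR1, a reductase of prostaglandins and leukotrienes, between 52.2 and 69.8 against 9.9 and 8.7 (1.64, and 1.20 and 0.16 by its other probe sets), and FKBP5, a co-chaperone of steroid hormone receptors, between 383 and 547 against 182 and 136 (1.47).

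Among the genes lower in the hairpin line, TMEM132D-AS1, an antisense RNA of a neural membrane protein gene, was the other one called. It read 1013 and 1104 in the control, and 341 and 362 in hairpin course 1, 402 and 409 in course 2, and 389 and 391 in course 3 (log2 difference -1.43, SE 0.19, limma adjusted p = 0.0488). Its second probe set read 377 and 379.6 against 126 to 139 (-1.41). Which strand of such a pair these probe sets read was not checked here. The 10 other genes named as lower had adjusted p values from 0.0542 to 0.109. HRH1, a histamine receptor, read 146 and 248 in the control and between 20.2 and 54.5 in the hairpin line (-1.94), and its second probe set gave -1.24. MXRA5, a secreted matrix protein, read 165 and 168 against 31.8 to 50.7 (-1.77), and DAPK1, a kinase that promotes cell death, 116 and 120.0 against 18.2 to 35.3 (-1.61). RAC3 read 65.9 and 85.8 in the control and was dim in the hairpin line, at 3.8 to 15.2 (-1.85). All 6 hairpin arrays were below the array median, so RAC3, like ZNF22, passed the filter through the control arrays alone. TTC12, a factor in assembly of ciliary dynein, read 606 and 619 against 200.2 to 356 (-1.26), and its 3 other probe sets gave -0.42 to -0.77. SOCS2, an inhibitor of cytokine and growth hormone signalling, read 90.7 and 59.5 against 4.9 to 24.1 (-1.56). 

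**Figure D2:**
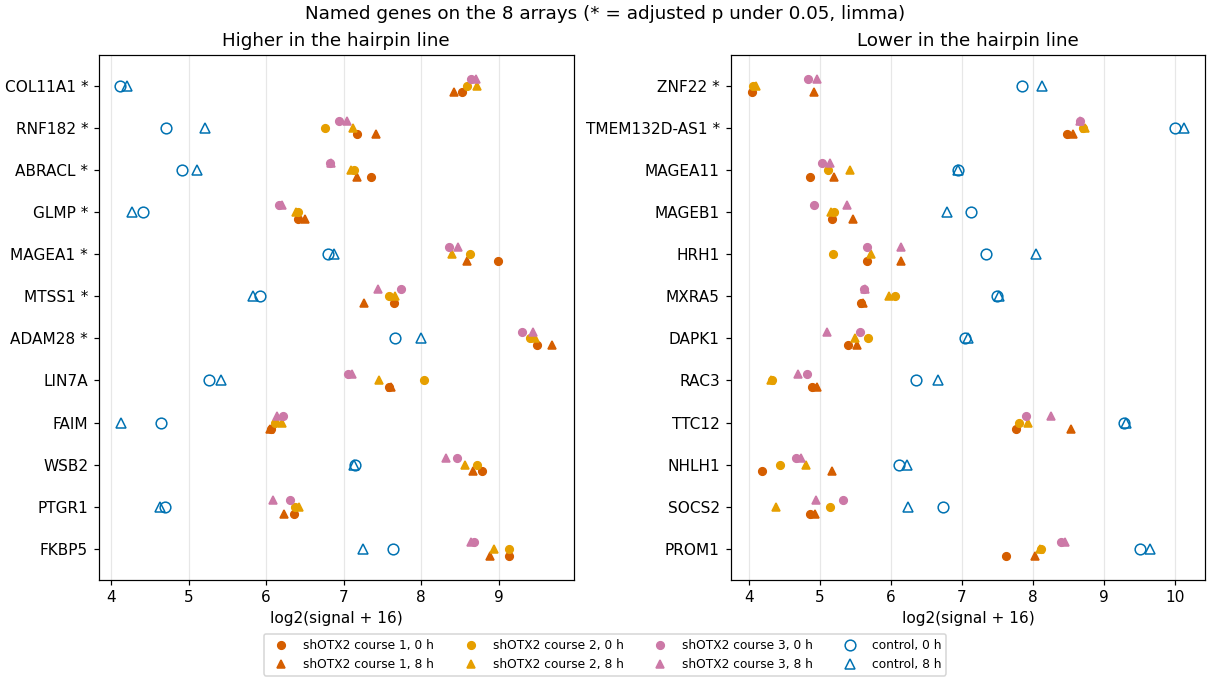
log2(signal + 16) of the 12 genes named as higher (left) and the 12 named as lower (right) in the hairpin line. Filled symbols are the hairpin arrays, coloured by course, and open symbols the control arrays; circles are 0 h and triangles 8 h. In each gene the 6 hairpin arrays lie on 1 side of both control arrays, as the rule for naming required, and an asterisk marks the 9 genes with a limma adjusted p under 0.05.

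Cancer-testis antigens, proteins normally made in germ cells and switched on in many tumours, differed between the lines in both directions. MAGEA1 was called higher, at 494 and 371 in hairpin course 1, 379 and 323 in course 2, and 314 and 341 in course 3, against 95.7 and 102 in the control (log2 difference 1.73, limma adjusted p = 0.0488). MAGEA11 read 108 and 107 in the control and between 13.1 and 27.1 in the hairpin line (-1.82, adjusted p = 0.0542 by limma). MAGEB1 read 125 and 94.9 against 14.1 to 28.0 (-1.75, adjusted p = 0.0542 by limma). These genes belong to families of near-identical copies, and the MAGEA1 probe set is of a kind that can bind several transcripts, so the member read is uncertain. Of 55 genes listed, 35 had a named probe set and 18 passed the filter. Of the 18, 2 were higher on all 6 hairpin arrays (11.1%, against 8.73% of all tested genes) and 6 lower (33.3%, against 10.6%). The median of the 18 was -0.11, with 0.01, -0.17 and -0.13 in courses 1, 2 and 3. MAGEA6, MAGEB2, MAGEC1 and PRAME were bright in both lines and overlapped, with differences of -0.09, -0.16, 0.02 and -0.14.

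OTX2, the target of the hairpin, and MYC were bright on all 8 arrays. OTX2 read slightly lower in the hairpin line from the start, and the difference did not pass the test. Its brighter probe set read 4417 and 4070 in hairpin course 1, 4839 and 4316 in course 2, and 4720 and 3950 in course 3, against 4964 and 5241 in the control. No arrays overlapped, and 10.6% of all tested genes were separate in that direction. The log2 difference was -0.22 (limma adjusted p = 0.825). The second probe set read between 2412 and 3198 against 3308 and 3455 (-0.31), also without overlap. At 0 h alone the hairpin courses read 4417, 4839 and 4720 against 4964. The labels do not give the place of the hairpin or of the probes on the OTX2 transcript. MYC read between 4392 and 5317 in the hairpin line against 5804 and 7017 in the control (-0.39, unadjusted p = 0.0243 by limma, adjusted p = 0.642). Neither gene was called under any of 17 alternatives.

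The integrated stress response had the lowest list median over the 3 courses, -0.49, close to the -0.46 of the genes listed as rising after induction, which stood lower than it in courses 1 and 2. This response, run by the transcription factor ATF4, raises enzymes of amino acid synthesis, amino acid transporters and tRNA ligases when cells lack amino acids or meet other stresses. Of 35 tested members, 19 were lower on all 6 hairpin arrays than on both control arrays (54.3%, against 10.6% of all tested genes) and 1 was higher (2.86%, against 8.73%). None was called by limma at an adjusted p under 0.05, and 16 had an unadjusted p under 0.05 (888 of all 13006 genes). With course 1 alone, whose actin ratio is like the control's, 25 of the 35 were lower on both arrays (71.4%, against 23.8% of all genes), and with courses 2 and 3 alone 23 were lower (65.7%, against 23.5%). The list's median was -0.37, -0.46 and -0.45 in the 3 courses, beside -0.04 for all genes and all courses, and over all courses it lay between -0.60 and -0.39 under the 17 alternatives. In bulk RNA, fewer cells of a type and less RNA per cell cannot be told apart.

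ATF4 itself read 4453 and 4254 in the control and between 2246 and 3379 in the hairpin line (log2 difference -0.59, limma adjusted p = 0.469). CHAC1, a glutathione-degrading enzyme and ATF4 target, read 138 and 71.1 in the control, and 44.1 and 15.9 in hairpin course 1, 40.0 and 19.9 in course 2, and 62.1 and 26.0 in course 3 (-1.26). In each of the 4 courses CHAC1 was lower at 8 h than at 0 h. ASNS, which makes asparagine, read 3335 and 3316 against 1455 to 2056 (-0.87). The serine synthesis genes PHGDH and PSAT1 gave -0.66 and -0.73, and PYCR1, of proline synthesis, -0.83. SLC7A5, a transporter of large neutral amino acids, read 2239 and 1376 in the control and between 604 and 1356 in the hairpin line (-1.0). The lowest control array and the highest hairpin array were close, and the difference was -0.43, -1.32 and -1.26 in courses 1, 2 and 3. The tRNA ligase genes SARS1, CARS1 and AARS1 gave -0.51, -0.49 and -0.57, the transcription factor CEBPB -0.93 and the stress sensor SESN2 -0.87. CEBPG, a partner of ATF4, was the member that was higher, at 193 to 218 against 153 and 177 (0.29). Adjusted p values of these members ran from 0.177 for ASNS to 0.84 for CEBPG.

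Photoreceptor genes tended the other way. Of 39 tested genes of the OTX family and photoreceptors, 13 were higher on all 6 hairpin arrays (33.3%, against 8.73% of all tested genes) and 4 lower (10.3%, against 10.6%), and limma called none, with 13 at an unadjusted p under 0.05. With course 1 alone 18 were higher (46.2%, against 26.2% of all genes). The list's median was 0.17, with 0.21, 0.19 and 0.16 in the courses, and it was 0.076 without course 1, 0.089 without course 2 and 0.033 without the filter. PDC, which binds transducin subunits in photoreceptors, read 59.2 and 32.6 in hairpin course 1, 83.2 and 93.7 in course 2, and 54.1 and 60.3 in course 3, against 2.7 and 13.3 in the control (log2 difference 1.72, adjusted p = 0.169 by limma). NRL, a transcription factor of rods, read 254 and 376 in course 1, 402 and 259 in course 2, and 159.7 and 222 in course 3, against 81.9 and 77.0 (1.57, adjusted p = 0.177 by limma). SAG, the arrestin of rods, read between 60.4 and 151 against 36.0 and 35.5 (1.16), and UNC119, a carrier of lipidated signalling proteins, between 26.2 and 76.4 against 10.0 and 12.9 (1.24). Among brighter members, IMPG1, of the matrix between photoreceptors, read 936 to 1207 against 569 and 621 (0.81), GUCA1A, an activator of guanylate cyclase, 742 to 1115 against 473 and 507 (0.90), and PDE6H, a cone phosphodiesterase subunit, 1060 to 1657 against 749 and 745 (0.80). The members that were lower included OTX2, GNGT1 (-0.24) and PDE6A (-0.44), so the list did not move as a block. ABCA4, GNGT2, KCNV2 and PDE6H are also among the genes listed below as falling after induction, whose choice used the 0 h hairpin arrays. Of these, ABCA4, GNGT2 and PDE6H are among the 13 higher members, so to that extent the count is a description only.

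**Figure D3:**
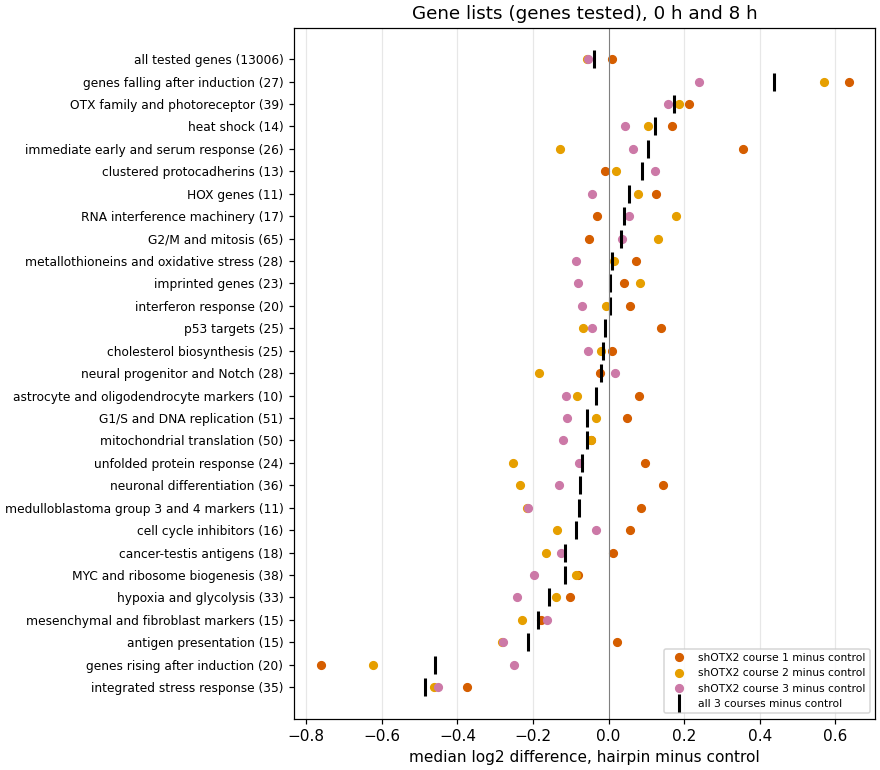
Median log2 difference, hairpin minus control, of each gene list with at least 10 tested genes; the number tested is in brackets. Circles give each hairpin course against the control course, and the bar all 3 courses. The integrated stress response list has a median of -0.49 and all 3 courses below -0.3, the OTX family and photoreceptor list 0.17, and all tested genes -0.04.

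Lists of proliferation genes had medians near that of all genes. Of 51 tested genes of G1/S and DNA replication, 4 were higher on all hairpin arrays (7.84%, against 8.73% of all tested genes) and 3 lower (5.88%, against 10.6%), with a median of -0.06. The replication factor C subunit gene RFC5 read between 354 and 613 against 286 and 229 in the control (log2 difference 0.83), and CDT1, which licenses replication origins, between 661 and 847 against 1272 and 1116 (-0.60). Of 65 genes of G2/M and mitosis, 5 were higher and 5 lower (7.69% each), with a median of 0.03, which turned sign with the 0 h arrays alone and without course 2 (-0.01) and was 0.092 without course 1. Of 38 genes of MYC and ribosome biogenesis, 1 was higher (2.63%, against 8.73% of all tested genes) and 8 lower (21.1%, against 10.6%), with a median of -0.12 and between -0.16 and -0.07 under the alternatives. Among them, the MYC antagonist MXI1 gave -0.42, and the nucleolar protein genes NCL and FBL, bright in both lines, -0.10 and -0.15. Genes of mitochondrial translation numbered 2 higher (4.0%) and 9 lower (18%) of 50 (median -0.06).

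Neuronal and progenitor genes differed one by one. Of 36 tested genes of neuronal differentiation, 7 were higher on all hairpin arrays and 7 lower (19.4% each, against 8.73% and 10.6% of all tested genes), with a median of -0.08, which was 0.14 in course 1, -0.23 in course 2 and -0.13 in course 3. DPYSL3, a regulator of growth cones, read between 358 and 599.9 against 200.1 and 182 (log2 difference 1.12), RBFOX1, a neuronal splicing factor, between 49.2 and 124 against 19 and 21.6 (1.29), and NLGN1, a synaptic adhesion protein, between 15.7 and 45.5 against 0.6 and 4.2 (1.31). NHLH1, a helix-loop-helix factor of early neurons, read 53.5 and 58.6 in the control and between 2.1 and 20.0 in the hairpin line (-1.51, limma adjusted p = 0.101). Of 28 genes of neural progenitors and Notch signalling, 1 was higher (3.57%, against 8.73%) and 5 lower (17.9%, against 10.6%). PROM1, which encodes the stem cell surface marker CD133, read 713 and 788 in the control, and 180 and 245 in hairpin course 1, 263 and 259.7 in course 2, and 322 and 334 in course 3 (-1.46, limma adjusted p = 0.109). No array overlapped, and the control arrays were more than 2-fold above every hairpin array. The cerebellar factor ZIC2 gave -1.09, the Notch ligand DLL3 -0.87 and the nuclear factor NFIB 0.81.

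Single genes stood out in other lists. PEG3, an imprinted zinc finger gene expressed from the paternal copy, read between 52.4 and 84.4 in the hairpin line against 5.9 and 15.4 in the control (log2 difference 1.72, limma adjusted p = 0.091). Of 23 tested imprinted genes, 4 were higher (17.4%, against 8.73% of all tested genes) and 5 lower (21.7%, against 10.6%). HOXD13, a limb and hindgut patterning factor, read between 69.2 and 141 against 20.3 and 35.8 (1.46, limma adjusted p = 0.208), while the other 10 HOX genes tested overlapped. In the RNA interference machinery, 4 of 17 genes were higher (23.5%, against 8.73%) and 1 lower (5.88%, against 10.6%), with DICER1, which cuts hairpin precursors, between 1178 and 2091 against 1018 and 1119 (0.56) and TNRC6A, a partner of Argonaute proteins, at -0.53. Of 20 interferon response genes 3 were higher and 3 lower (15.0% each), with USP18, a protease that removes ISG15, at -1.30. USP18 gave -1.37, -2.06 and -0.47 in courses 1, 2 and 3. Hypoxia and glycolysis genes numbered 5 higher (15.2%, against 8.73%) and 9 lower (27.3%, against 10.6%) of 33 (median -0.16). SC5D, an enzyme of cholesterol synthesis, read between 1686 and 2641 against 1048 and 1264 (0.93), with 2 higher (8.0%) and 1 lower (4.0%) of 25 in its list.

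Markers of other cell types were looked for as a check on the cultures. None of 15 immune markers with a named probe set exceeded the array median on all 8 arrays, and all 15 stayed under a signal of 50, as did 11 of 12 endothelial and 14 of 15 epithelial markers. Astrocyte and oligodendrocyte markers were the brightest of these lists: 6 of 19 exceeded the median on all 8 arrays, and their summed signal was between 2958 and 3694 in the hairpin line and between 3180 and 3374 in the control. Most of it came from GLUL, which encodes glutamine synthetase (1959 to 2243 against 2188 and 2355), while the defining markers GFAP, AQP4, S100B and SOX10 never exceeded 12.1. Of 22 mesenchymal markers 16 stayed under 50, and their summed signal was between 612 and 742 in the hairpin line and between 907 and 912 in the control. Of the 15 tested, 0 were higher on all 6 hairpin arrays (against 8.73% of all tested genes) and 4 lower (26.7%, against 10.6%). TWIST1, the brightest, overlapped (188 to 266 against 213 and 231), as did FN1 (64.4 to 94.8 against 60.3 and 66.9). SPARC, a secreted matrix glycoprotein, read 144 and 140 in the control and between 42.0 and 81.6 in the hairpin line (log2 difference -1.16). COL1A1 read 94.6 and 116 against 19.7 to 56.0 (-1.20), and neither of them was called. Both are also among the genes listed below as rising after induction. COL11A1, also a fibrillar collagen, was higher where these were lower. The part of mesenchymal-like cells in any of these differences was not tested.

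Genes listed from earlier results as moving after induction were also compared at the start. Of 27 tested genes that fall over the course of induction, 14 were higher in the hairpin line on all early arrays (51.9%, against 8.73%) and 1 lower (3.70%), with a median log2 difference of 0.44. Of 20 tested genes that rise, 0 were higher and 10 lower (50%, against 10.6%), with a median of -0.46. The earlier results came from the same arrays, and in them the 0 h hairpin arrays were the starting point, so the early values entered the choice and the counts are a description only. AQP1, a water channel, read 757 and 501 in hairpin course 1, 407 and 340 in course 2, and 225 and 289.9 in course 3, against 92.3 and 105 in the control (1.82, limma adjusted p = 0.214), and its later fall in the hairpin line was -3.71. For CA2, a carbonic anhydrase, the early difference was 1.49 and the later fall -4.20, and for TIMP3, an inhibitor of metalloproteases, 1.46 and -4.51. PPP1R17, a phosphatase inhibitor of cerebellar neurons, gave -1.63 early and 5.77 later, and SPARC -1.16 and 4.36. Both kinds of value share the 0 h hairpin arrays.

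Between 0 h and 8 h no gene passed the test. limma called 0 genes for a difference between the lines in the 8 h minus 0 h change, where 516 had an unadjusted p under 0.05, and 0 for a change within the hairpin line (1007 at an unadjusted p under 0.05, lowest adjusted p = 0.187). COL11A1 changed by 0.03 in the hairpin line and 0.08 in the control. With 3 courses against 1, an early response could go uncalled, and not only a small one. GBP1, of the interferon response list, went from 55.2 to 353, 67.3 to 209 and 173 to 280 in the hairpin courses. In the control GBP1 went from 78.4 to 117, and its change was not called.

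The 16 arrays taken from 16 h to 96 h were not used to choose the genes, although they come from the same courses and so are no independent replicates. All 24 named genes lay on the same side of the control on all 3 hairpin arrays at 16 h, where 44.9% of all tested genes did. The 4 later control arrays of 22 of the 24 named genes also stayed outside the range of the early hairpin arrays (13.7% of all tested genes). The exceptions were RAC3 and TTC12. The named genes were picked for early arrays that lay apart, so genes alike in this are the closer comparison. Of the 133 that did not overlap early and differed at least 2-fold, 86.5% kept their side at 16 h. In 83.5% of the 133 the later control arrays stayed outside, as in 46.1% of the 2509 that did not overlap. At 16 h alone, with 3 arrays against 1, the log2 difference was 4.34 for COL11A1, -3.48 for ZNF22 and -2.21 for TTC12. TTC12 had gone down in the hairpin line by then, to 107, 98.7 and 89.5 against 513 in the control. Its early difference was -1.26, so its value at 16 h holds a later change as well as the starting gap. Over all 6 times the hairpin and control arrays did not overlap in 15 of the 24 genes. ZNF22 never exceeded 24.4 in the hairpin line or went under 213 in the control, and GLMP never went under 52.9 in the hairpin line or exceeded 5.2 in the control. TMEM132D-AS1 stayed between 309 and 515 against 1013 to 1357.

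Other genes started apart and had other levels at later times. COL11A1 went down to 33.4, 88.2 and 74.5 at 96 h in the 3 hairpin courses, still above the control's 1.4. ADAM28 crossed over, from 618 to 811 early to 43.2, 44.7 and 44.9 at 96 h, with 121 in the control. FKBP5 was at 83.7, 98.9 and 115 at 96 h against 111 in the control. NHLH1 crossed in the other direction, from at most 20.0 early to 646, 554 and 494 against 97.8, and DAPK1 reached 165, 199 and 126 against 113. PROM1 started lower in the hairpin line and went lower still, to between 60.5 and 86.8 against 809.9. For these genes the value at 96 h in the hairpin line thus holds both the starting gap and the later change. Of the 133 genes that did not overlap early and differed at least 2-fold, 115 were on the same side at 16 h (86.5%), as were 1742 of the 2509 that did not overlap (69.4%).

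**Figure D4:**
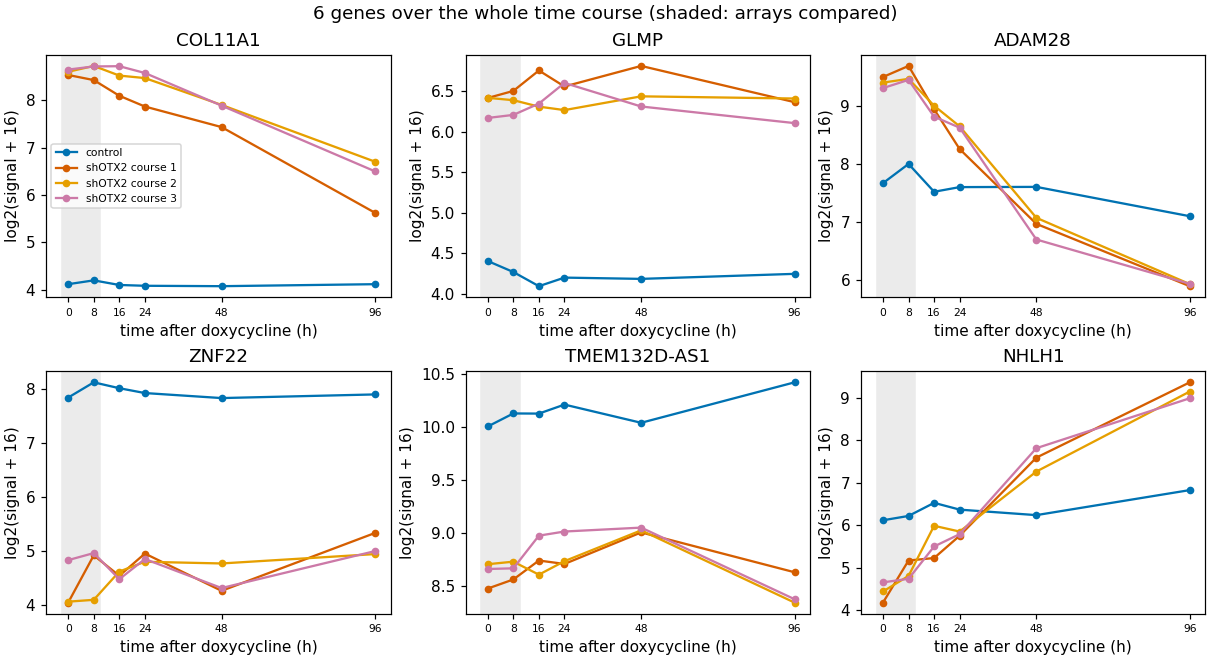
log2(signal + 16) of 6 genes at each time after doxycycline, with 1 line per course (3 hairpin courses and the control course). The shaded band marks the 0 h and 8 h arrays compared here. COL11A1, GLMP, ZNF22 and TMEM132D-AS1 stay apart at every time, while ADAM28 and NHLH1 start apart and cross by 96 h.

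The differences were last laid out in the order of the genes along the chromosomes. The order came from RefSeq on GRCh38.p14 and placed 12995 of the tested genes. No run of 3 neighbouring called genes was found, since 9 genes were called. Of all tested genes, 8.73% were higher on all hairpin arrays than in the control and 10.6% lower. There were 48 runs of at least 3 consecutive genes that did not overlap and differed in the same direction, and the longest had 5 genes. These were ARMC8, MRAS, CEP70, FAIM and PIK3CB (median 0.60), CEBPG, PEPD, KCTD15, LSM14A and GARRE1 (0.51), and ZNF821, IST1, DHODH, TXNL4B and DHX38 (-0.48). The median over each stretch of 25 consecutive genes was between -0.21 and 0.13 in 90% of 12424 overlapping stretches.

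The stretch from LINC02987 to GARRE1 had the highest median, 0.43, with 0.41, 0.53 and 0.40 in the 3 courses. Of its 25 genes, 14 were higher on all hairpin arrays, where 8.73% of all tested genes were higher and 10.6% lower. POP4, a subunit of RNase P, gave 0.77 there, and CCNE1, the cyclin of the G1/S transition, 0.24. The stretch from PARPBP to ABTB3 followed (0.41, 14 genes higher and 1 lower), with IGF1, insulin-like growth factor 1, at 0.98. The lowest medians were those from EXOSC6 to DHX38 (-0.42, 13 lower and 1 higher), with DDX19B, an RNA helicase of mRNA export, at -1.11, and from FHOD1 to NFATC3 (-0.41, 11 lower and 0 higher), with ACD, a shelterin subunit, at -0.72. In the EXOSC6 stretch the course medians were -0.31, -0.38 and -0.43, and in the FHOD1 stretch -0.23, -0.50 and -0.51. The stretch from KLHDC4 to CDK10 had a median of -0.40, but -0.10 in course 1, and that from RDH13 to U2AF2 -0.37, but 0.02 in course 1, so in these 2 the difference lay with the courses that also differed from the control in the actin ratio, whose part was not tested. AARS1 and SLC7A5 of the integrated stress response lie in the EXOSC6 and KLHDC4 stretches, and CEBPG, its 1 higher member, in the LINC02987 stretch. These stretches were picked for their extreme medians, so their sizes are a description and have no test.

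In later arrays the stretches went different ways. The difference of the FHOD1 stretch was -0.35, -0.40, -0.43, -0.44, -0.44 and -0.41 at 0, 8, 16, 24, 48 and 96 h. At the same times the KLHDC4 stretch gave -0.34, -0.41, -0.60, -0.66, -0.41 and -0.63. The RDH13 stretch gave -0.28, -0.39, -0.34, -0.33, -0.10 and -0.12. The difference of the EXOSC6 stretch went from -0.41 at 0 h to -0.26 at 24 h and -0.02 at 96 h. That of the LINC02987 stretch went from 0.44 to 0.34 and 0.07. The PARPBP stretch gave 0.41 at 0 h, 0.57 at 24 h and 0.16 at 96 h. Over all tested genes the median was between -0.08 and -0.03 at every time.

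**Figure D5:**
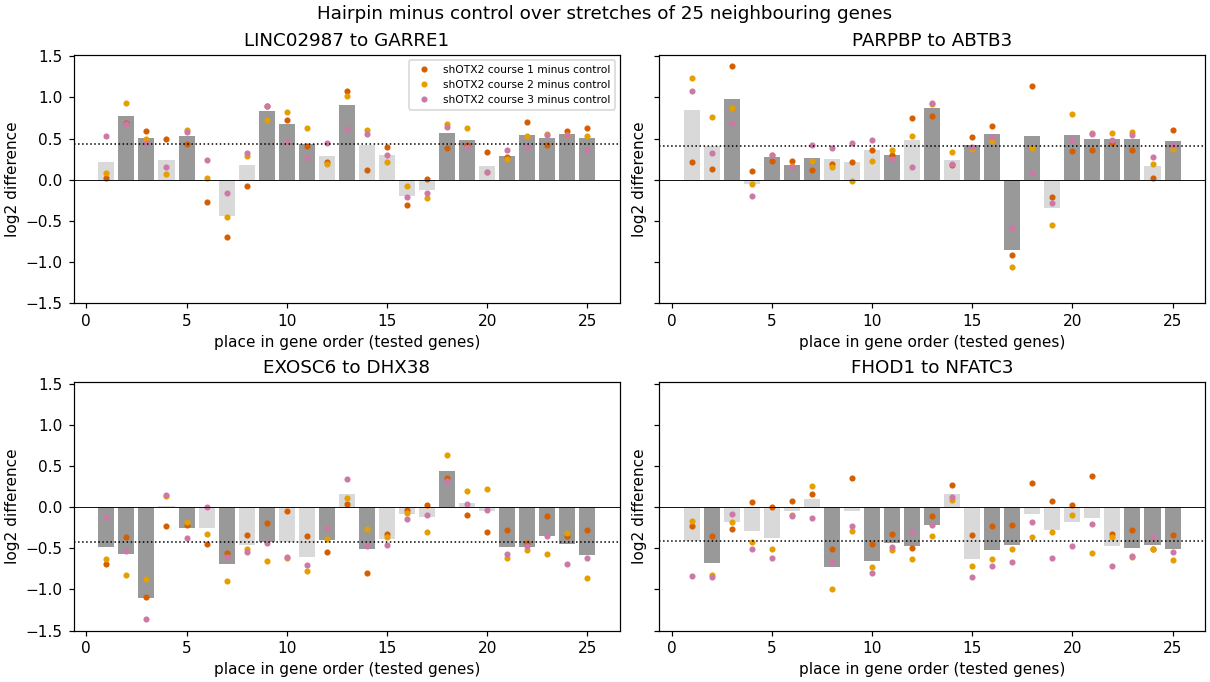
log2 difference, hairpin minus control at 0 h and 8 h, of 25 neighbouring tested genes in 4 stretches, by place in gene order. Bars give all 3 courses (dark where the hairpin and control arrays do not overlap), points each course, and the dotted line the median, which is 0.43, 0.41, -0.42 and -0.41 in the 4 panels. The upper panels show most genes above 0 and the lower panels most genes below it.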

How the data were processed

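Total RNA of 8 samples was measured on 1-colour arrays. Per the submitters' processing notes the authors used MAS5 and GCOS, whose versions the labels do not give. Each deposited value is a MAS5 signal, a linear intensity, and every array's trimmed mean (2% at each end) lay between 100.011 and 100.014, which hides any shift common to most genes. No detection calls were used here. Arrays have no depth, and their number limits the precision. The table's 24 columns are the arrays of this series.

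Of 54675 probe sets, 41097 had 1 gene symbol in the platform annotation, 1801 had several and 11777 were not listed. Symbols were updated by Entrez ID for 41043 through the RefSeq gene table of GRCh38.p14. The 62 control probe sets were left out. Probe sets above the array median on at least 2 of the 8 arrays were kept (25195), and the brightest kept probe set by mean stood for its gene (13006 genes, 6565 with more than 1). Intensity was turned into log2(signal + 16), the 0 h and 8 h values of a course were averaged, and 3 hairpin courses were compared with 1 control course with limma 3.58.1 in R 4.3.3 (lmFit, eBayes with trend, Benjamini-Hochberg over all tested genes), with 2 residual degrees of freedom. The 8 h minus 0 h change was tested the same way on 1 difference per course. The figures were drawn with matplotlib 3.10.9.

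The course number pairs the 0 h and 8 h arrays, since the labels describe independent courses. The deviations of the 2 arrays of a course from their group means correlated at r = 0.535, 0.324 and 0.339 across genes. The labels do not give the cultures or days behind a course.

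Named were OTX2, MYC, the 12 genes each way that came first among those with hairpin and control arrays apart (called genes by size, then the others by moderated t), and up to 4 members of each list by size. Members of the integrated stress response, photoreceptor, cancer-testis and ribosome lists beyond these 4, ARMC8 to DHX38 in the runs, the stretches of 25 genes and the list counts with course 1 alone or courses 2 and 3 alone were chosen after their values were seen. The members and lists were chosen with earlier results of these data known. The fit was tested on simulated data with known changes. It called 0% of genes changed by a log2 of 1, 55.2% of those changed by 2 and 81.8% of those changed by 3. Of unchanged genes it called 0.01%. Alternatives covered the unit of replication, times, the constant added, the filter, the scaling, the probe set rule, the trend and each course left out. CpG content of promoters is not compared between gene sets, since fewer than 80% of the called genes had a promoter sequence.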

Additional observations from a re-analysis of the deposited data

How the results depend on the processing

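COL11A1 was called under all 17 alternatives and ZNF22 under 13 of the 16 that kept it in the test, while the other 7 called genes kept their direction under all 17 and their call under 7 to 10. The count of 9 called genes (7 higher, 2 lower) depends on how arrays are treated. With the course as a replicate block over 8 arrays it was 63 (47 higher, 16 lower), and with no replicate block, the 8 arrays taken as independent, 231 (156 and 75). With the 12 group means of all 24 arrays it was 508 (315 and 193, 62.0% higher against 77.8%). That fit also took the arrays of a course as independent, and its residual spread came from hairpin arrays alone. The 9 were among the called genes in each of these. The 0 h arrays alone gave 3, the 8 h arrays alone 1, no filter 1, the filter in at least 6 of 8 arrays 1, the mean of kept probe sets 2 and eBayes without trend 2. Centring arrays on their median gave 23 (15 higher and 8 lower, 65.2% higher) and quantile normalization 6 (5 and 1). The constant added left the number but not the genes: with 1, 10 were called, all higher, and 7 of them were shared, and with 64, 8 were called, 2 of them higher, and 4 were shared. Keeping each gene's probe set under these constants, an alternative added after seeing the data, gave the same counts. The 16 h arrays alone, added after seeing the data, gave 3.

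Leaving out 1 hairpin course gave between 2 and 1092 called genes. Without course 1 there were 1092 (469 higher, 623 lower), without course 2 there were 2 and without course 3 there were 36. The residual SD had a median of 0.177 with all courses, and of 0.109, 0.161 and 0.168 when course 1, 2 or 3 was left out. For the 8 h minus 0 h change between the lines this count was between 0 and 58, and for that within the hairpin line between 1 and 59, where all courses gave 0. No replicate block gave 0 within the hairpin line. Of the 27 gene lists recomputed, the medians of the integrated stress response and of the photoreceptor list kept their sign under all 17 alternatives. Those of several other lists did too, among them hypoxia and glycolysis, mitochondrial translation, and MYC and ribosome biogenesis. The photoreceptor median lay between 0.026 and 0.215. The median of genes falling after induction turned to -0.22 with the 16 h arrays. No fit compares the lines within a course, since each course holds 1 line.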
